A study of Mus musculus with 12 samples.

Results

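The genes described here make and store fat in the liver. They are 38 genes of fatty acid synthesis and triglyceride storage, taken by symbol from the 27304 genes of the count table, and all 38 symbols were found. Counts were high enough for testing for 36 of them, among 13641 genes tested in all. Mogat1, a monoacylglycerol acyltransferase, had 55 counts over the 12 libraries, and Cidea, a lipid droplet protein best known from brown fat, had 4 counts, so neither was tested.

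RNA-seq was made from total RNA of 12 mouse livers in 4 groups of 3. Ahr-null mice carried the genotype Apoe-/-AhR-/- and controls carried Apoe-/-, with males and females of each, so every mouse lacked apolipoprotein E. All mice received a diet labelled HFD for 12 weeks before their livers were flushed and taken. The labels give neither the mice's age beyond the time on the diet, nor the hour of collection, nor how the AhR alleles were made. The livers of the 2 genotypes were compared to look for effects of AhR, the aryl hydrocarbon receptor, which binds dioxins and other ligands and then acts as a transcription factor. Each liver is taken as a separate mouse, and the spread between these livers is all that the p-values measure.

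The liver turns surplus sugar into fat by de novo lipogenesis. Citrate leaves the mitochondrion and is cleaved to acetyl-CoA, acetyl-CoA carboxylase makes malonyl-CoA, and fatty acid synthase builds palmitate with NADPH. Elongases and desaturases then lengthen the chains and add double bonds, both to these fats and to the essential fatty acids of the diet. Acyl chains are joined to glycerol stepwise, by glycerol-phosphate acyltransferase, the AGPAT enzymes, the lipin phosphatases and finally DGAT, and the triglyceride is kept in droplets coated by perilipins and CIDE proteins until lipases such as ATGL release it. SREBP-1c and ChREBP, the products of Srebf1 and Mlxipl, are the main transcription factors known to turn the pathway on after feeding.

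Levels are given as CPM (counts scaled to a fixed library total) after TMM scaling of the libraries, in which 1 count was worth 0.0395 to 0.109 CPM. Total counts ran between 9794253 and 18924880 per library. Mitochondrial genes took 30.4% to 59.8% of counts in Ahr-null livers and 46.7% to 69.8% in control livers. Ahr itself had 13.7 to 24.5 CPM in Ahr-null livers and 12.4 to 25.0 CPM in control livers, and counts over the whole gene cannot show the loss of single exons. Cyp1a2, a classical AhR target gene, had 47.0 to 217 CPM in Ahr-null livers against 452 to 1170 CPM in control livers (log2 fold change -3.05 with an SE of 0.36, edgeR adjusted p = 0.00663). A pair of libraries stood apart by neuron and glia markers, which summed to 365 CPM in Ahr-null female 1 and to 202 CPM in control male 1, against 14.4 to 39.4 CPM in the other 10. A second pair was highest in summed hepatocyte markers, Ahr-null male 3 at 42626 CPM and Ahr-null female 1 at 75344 CPM, against 20189 to 34133 CPM in the others. Alb alone gave 22047 and 55134 CPM of these 2 sums. Ttr, Apoa2 and Serpina1a were also highest in this pair. Apoa1 was highest in Ahr-null male 2 (14329 CPM), and Tat had 190 CPM in Ahr-null female 1, against 148 to 841 CPM in the others. The 7 adipocyte markers summed to 15.4 to 36.7 CPM in Ahr-null livers and 32.3 to 41.3 CPM in control livers. Of these, Adipoq, Lep, Retn and Plin1 lay between 0 and 0.241 CPM, while Lipe had 7.90 to 28.1 CPM in Ahr-null livers and 23.1 to 34.6 CPM in control livers. Fabp4 had 5.51 to 12.9 CPM in Ahr-null livers and 5.27 to 10.2 CPM in control livers, and Cfd had 0.221 to 1.75 CPM in Ahr-null livers and 0 to 8.99 CPM in control livers.

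Markers of further cell types were set between the genotypes in the same fit. The median log2 fold change averaged over the sexes was 1.35 for red blood cell markers (4 of 4 tested positive), 1.17 for T and NK cell markers (4 of 4), 0.62 for cholangiocyte markers (5 of 5) and 0.52 for stellate cell markers (6 of 6), and none of these genes passed by edgeR. Summed red blood cell markers ran between 101 and 640 CPM in Ahr-null livers and between 56.2 and 196 CPM in control livers, so the genotypes overlapped. T and NK cell markers summed to 2.48 to 20.1 CPM in Ahr-null livers and 1.77 to 7.33 CPM in control livers. Cholangiocyte markers summed to 22.3 to 58.0 CPM in Ahr-null livers and 13.5 to 42.0 CPM in control livers, and stellate cell markers to 277 to 1136 CPM in Ahr-null livers and 235 to 521 CPM in control livers. Ahr-null female 1 was highest in these 3 sums. Of 6 Kupffer cell markers 1 was called higher, Marco (2.16 ± 0.34, edgeR adjusted p = 0.0148). The list's median was 0.23, with 4 positive and 2 negative, and it was 0.50 in males and -0.06 in females. Summed Kupffer cell markers overlapped, at 214 to 341 CPM in Ahr-null livers and 188 to 453 CPM in control livers. Endothelial markers had a median of -0.08. The part of these differences in the values below was not tested.

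Upstream DNA is shown for the genes that fell in Ahr-null livers, Thrsp and Lpin1, and for Elovl5, whose upstream window holds letters recognised by AhR and by E-box factors. Slc25a1 and Lpin2, not printed here, also had a window that held both. The windows come from RefSeq (GRCm38.p6), reach from 250 bases before to 50 bases after a transcript start, and were found for 31 of the 38 genes, in 44 windows. Printed are the bases, 5′ to 3′ on the gene's strand, that lie before the start in both RefSeq and GENCODE. Capitals mark CACGTG, the E-box core, and GCGTG or its reverse complement CACGC, the core of the dioxin response element.
Thrsp (chr7:97417731-97417800, minus strand): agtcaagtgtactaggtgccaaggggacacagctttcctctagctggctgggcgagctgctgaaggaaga
Lpin1 (chr12:16610967-16611216, minus strand): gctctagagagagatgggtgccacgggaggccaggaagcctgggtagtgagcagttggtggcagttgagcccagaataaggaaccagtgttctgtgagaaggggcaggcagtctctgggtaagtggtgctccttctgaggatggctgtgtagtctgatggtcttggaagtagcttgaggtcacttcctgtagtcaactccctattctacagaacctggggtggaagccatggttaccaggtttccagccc
Elovl5 (chr9:77917115-77917363, plus strand): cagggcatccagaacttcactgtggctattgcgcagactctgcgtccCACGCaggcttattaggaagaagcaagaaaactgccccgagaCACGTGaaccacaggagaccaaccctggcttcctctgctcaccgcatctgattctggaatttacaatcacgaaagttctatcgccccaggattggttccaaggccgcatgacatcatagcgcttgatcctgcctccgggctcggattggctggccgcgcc
The whole windows of Thrsp and Lpin1 held none of the 3 motifs searched, on either strand. CACGTG was in 5 of the 44 windows (11.4%, against 7.15% of all 32851 windows), GCGTG in 23 windows of 19 genes (52.3% against 32.4%), and TCACCCC, the core of a sterol response element, in 3 windows (6.82% against 4.97%). GCGTG cannot lie inside CACGTG, so an occurrence is counted under 1 of these motifs. These shares describe letters in short windows and not binding.

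In the comparison of genotypes averaged over the sexes, 2 of the 36 tested genes passed the test, and both were lower in Ahr-null livers. They were Thrsp, a nuclear protein that promotes lipogenesis, and Lpin1, which makes diacylglycerol for triglyceride synthesis. Over all tested genes 1.06% were called, and 0.528% were called lower. No gene of the set was called higher at an edgeR adjusted p under 0.05, although Fads2, the desaturase that starts polyunsaturated fatty acid synthesis, came close. At an unadjusted p under 0.05, 6 genes were higher (7.84% of all tested genes) and 8 lower (7.47% of all), together 14 of 36 (15.3% of all). The median log2 fold change of the set was -0.03 (17 genes positive, 19 negative), next to 0.04 for all tested genes; with scaling by library size alone these medians were 0.48 and 0.53. In bulk liver, fewer cells of a type and less RNA per cell cannot be told apart.

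**Figure D1:**
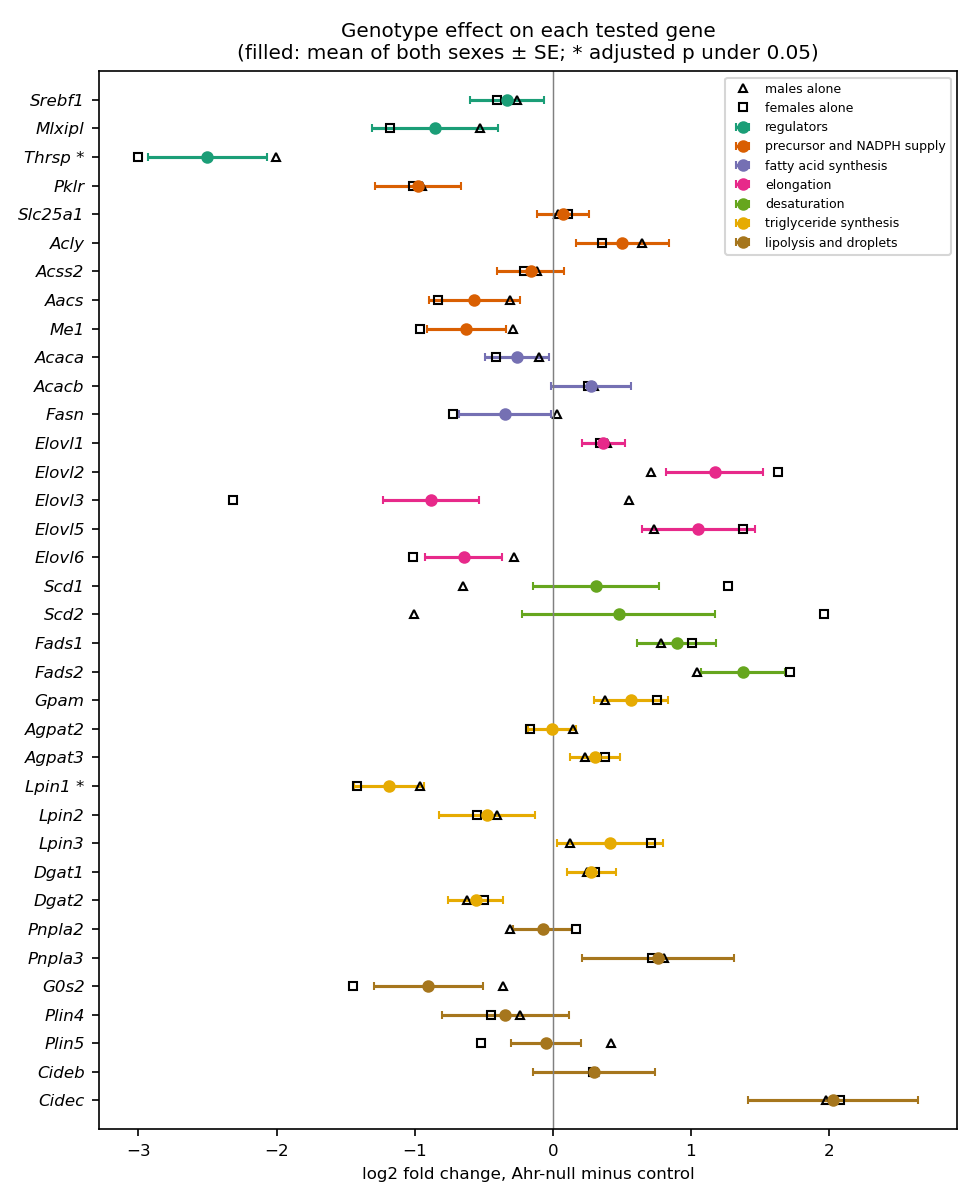
Log2 fold change, Ahr-null minus control, of the 36 tested genes, ordered by role; filled points with bars are the average over both sexes ± SE, triangles the males alone and squares the females alone. Thrsp (-2.50) and Lpin1 (-1.19), marked by asterisks, lie left of 0 in both sexes. The triangles and squares of several genes, among them Elovl3, Scd1, Scd2 and Fasn, lie on opposite sides of 0.

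Among the regulators, Thrsp moved most. Thrsp, the thyroid hormone responsive Spot 14 protein, lies at chr7:97412938-97417730 and was the second most abundant of the 38 genes per kilobase of exon, after Scd1. It had 102, 171 and 66.6 CPM in Ahr-null males and 112, 68.7 and 41.3 CPM in Ahr-null females, against 514, 595 and 251 CPM in control males and 653, 943 and 184 CPM in control females. All 6 Ahr-null livers lay below all 6 control livers. Males averaged 113 ± 53.2 CPM when Ahr-null and 453 ± 180 CPM as controls, and females 74.1 ± 35.8 CPM when Ahr-null and 593 ± 383 CPM as controls (SD, n = 3 each). Averaged over the sexes, Thrsp had a log2 fold change of -2.50 ± 0.43 and so was lower (edgeR adjusted p = 0.0186). Within a sex the value was -2.0 ± 0.60 in males (edgeR adjusted p = 0.462) and -3.0 ± 0.62 in females (edgeR adjusted p = 0.0881), and the effects in the sexes were not shown to differ (interaction 1.0 ± 0.82, edgeR adjusted p = 0.999). With 1 library left out in turn the averaged value stayed between -2.72 and -2.26. The call was lost without Ahr-null male 1 (edgeR adjusted p = 0.100), Ahr-null male 3 (0.0901), Ahr-null female 2 (0.0693), control male 2 (0.0876), control female 1 (0.0842) or control female 2 (0.0770).

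The transcription factors above it did not pass the test. Srebf1 had 113, 147 and 119 CPM in Ahr-null males and 71.5, 163 and 156 CPM in Ahr-null females, against 112, 188 and 153 CPM in control males and 236, 172 and 111 CPM in control females. The groups overlapped in both sexes (averaged log2 fold change -0.33 ± 0.27, edgeR adjusted p = 0.603). With scaling by library size alone the value was 0.14, below the median of 0.53 for all tested genes in that setting. Mlxipl had 516, 766 and 374 CPM in Ahr-null males and 45.9, 427 and 566 CPM in Ahr-null females, against 706, 1022 and 660 CPM in control males and 905, 529 and 919 CPM in control females. Its values overlapped as well, and 1 library, Ahr-null female 1 at 45.9 CPM, lay far below the rest. For Mlxipl the averaged log2 fold change was -0.85 ± 0.46 (edgeR adjusted p = 0.395). It was -0.58 without that library and -1.125 without Ahr-null female 3, the ends of the range with 1 library left out.

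The genes that supply carbon and NADPH gave no call by edgeR or DESeq2 among 6 tested. Their log2 fold changes ran between -0.98 and 0.50, with 2 positive and 4 negative. Of these, Acss2 turned positive with scaling by library size alone (0.40, below the all-gene median of 0.53 in that setting). Pklr, the liver pyruvate kinase and a well-known ChREBP target, had 5.92, 10.5 and 9.08 CPM in Ahr-null males and 8.82, 11.8 and 10.7 CPM in Ahr-null females, against 7.24, 30.0 and 11.7 CPM in control males and 28.8, 16.5 and 17.8 CPM in control females. The female groups did not overlap, the male groups did, and the averaged log2 fold change was -0.98 ± 0.31 (edgeR adjusted p = 0.166). Without the pair of libraries rich in neural transcripts Pklr passed, at -1.09 (edgeR adjusted p = 0.0458). With single libraries left out, however, the edgeR adjusted p lay between 0.0953 and 0.376. The value then ran from -1.154 without control male 1 to -0.59 without control male 2. Me1, the cytosolic malic enzyme that yields NADPH, had 12.5, 12.7 and 30.6 CPM in Ahr-null males and 19.6, 12.0 and 6.90 CPM in Ahr-null females, against 18.8, 26.5 and 23.1 CPM in control males and 21.8, 28 and 24.9 CPM in control females. Ahr-null male 3 was the highest liver of all 12, the other 5 Ahr-null livers were not above 19.6 CPM, and only the female groups were separate. Me1 gave -0.63 ± 0.28 averaged over the sexes (edgeR adjusted p = 0.317), and -1.12 without the pair highest in hepatocyte markers (edgeR adjusted p = 0.00593). The citrate carrier Slc25a1, ATP citrate lyase Acly, the acetyl-CoA synthetase Acss2 and the acetoacetyl-CoA synthetase Aacs had averaged log2 fold changes of 0.07, 0.50, -0.16 and -0.57, none with an unadjusted p under 0.05.

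The core synthesis enzymes did not pass either. Fasn, fatty acid synthase, had 152, 197 and 177 CPM in Ahr-null males and 118, 229 and 116 CPM in Ahr-null females, against 159, 226 and 131 CPM in control males and 360, 319 and 85.2 CPM in control females. Control females thus held both the highest and the lowest values, and the averaged log2 fold change was -0.35 ± 0.33 (edgeR adjusted p = 0.678). It was 0.19 with scaling by library size alone, where the median of all tested genes was 0.53. Acaca, the acetyl-CoA carboxylase of lipogenesis, had 41.2, 42.3 and 47.7 CPM in Ahr-null males and 19.2, 38.5 and 46.1 CPM in Ahr-null females, against 31.7, 61.1 and 47.9 CPM in control males and 52.4, 41.7 and 44.0 CPM in control females. The groups overlapped in both sexes (averaged log2 fold change -0.26 ± 0.23, edgeR adjusted p = 0.655; 0.22 with scaling by library size alone). Acacb, the carboxylase whose malonyl-CoA restrains fat burning, was at 0.28 ± 0.29.

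**Figure D2:**
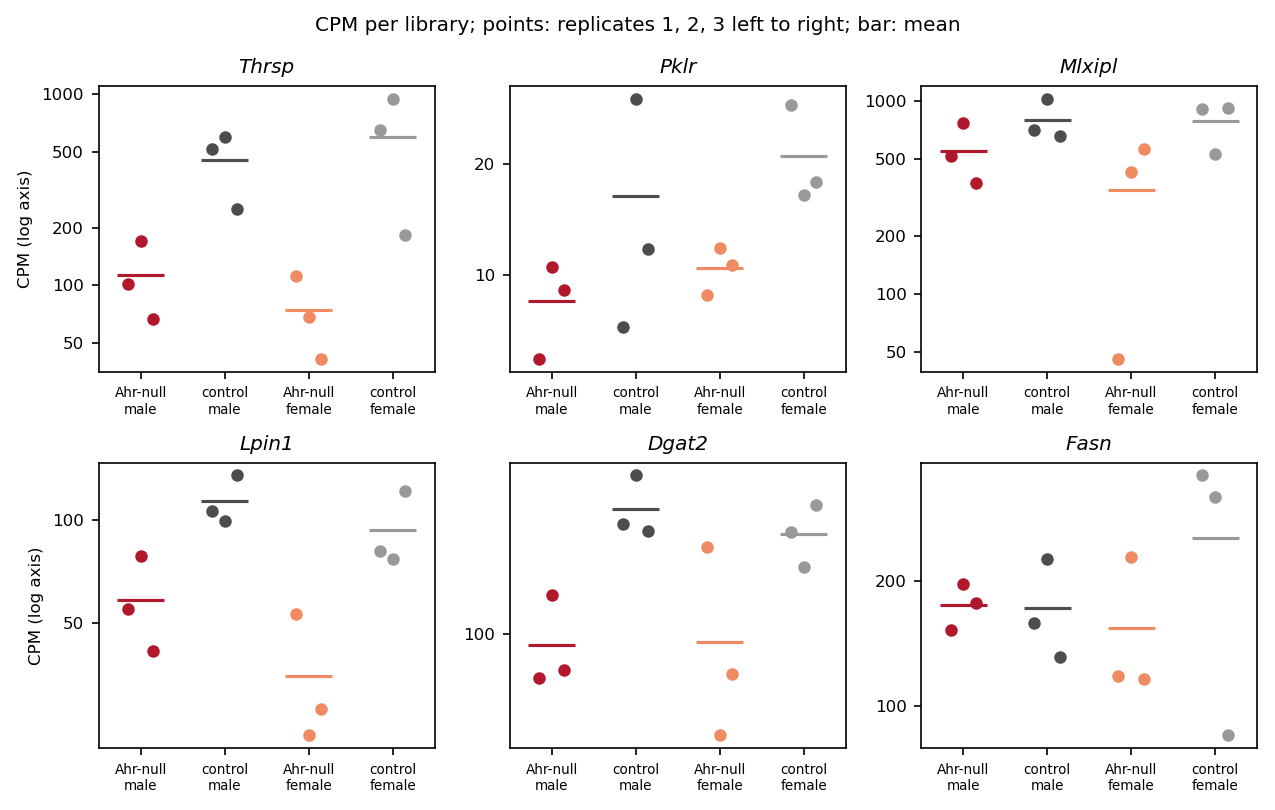
CPM on a log axis in each of the 3 libraries of the 4 groups, with group means as short lines, for Thrsp, Pklr, Mlxipl, Lpin1, Dgat2 and Fasn. For Thrsp and Lpin1 the Ahr-null points of each sex lie below the control points of that sex, whereas the points of Fasn and Mlxipl overlap.

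Fads2, Fads1, Elovl2 and Elovl5, which act on polyunsaturated fatty acids, had positive fold changes that did not pass the edgeR test. They were grouped here after their values were seen. DESeq2 called Fads2 (1.39, adjusted p = 0.00058) and Elovl2 (1.19, adjusted p = 0.0307), with 582 of 15469 genes called over all. With scaling by library size alone edgeR called all 4. That setting called 986 genes higher and 67 lower and moved the median of all tested genes to 0.53. Fads2 had 159, 67.9 and 291 CPM in Ahr-null males and 210, 165 and 172 CPM in Ahr-null females, against 66.9, 104 and 80.8 CPM in control males and 69.2, 50.3 and 46.5 CPM in control females. Female groups were fully separate, while in males Ahr-null male 2 fell among the controls. For Fads2 the averaged log2 fold change was 1.38 ± 0.30 (unadjusted p = 0.000582, edgeR adjusted p = 0.052). Without Ahr-null male 2 it was 1.57 (edgeR adjusted p = 0.00636), and without Ahr-null female 1 it was 1.34 (edgeR adjusted p = 0.0239). Fads2 did not pass in the other 10 fits with 1 library left out (edgeR adjusted p up to 0.181). The value was lowest, at 1.08, without Ahr-null male 3.

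Fads1, the next desaturase on the route to arachidonic acid, lies near Fads2 on chromosome 19. It had 59.4, 58.0 and 168 CPM in Ahr-null males and 109, 68.4 and 61.0 CPM in Ahr-null females, against 58.3, 62.4 and 45.3 CPM in control males and 42.7, 40.3 and 35.1 CPM in control females. Ahr-null male 3 and Ahr-null female 1 stood out, and the averaged log2 fold change was 0.90 ± 0.28 (edgeR adjusted p = 0.164). Elovl2, which elongates long polyunsaturated chains towards docosahexaenoic acid, had 83.0, 63.7 and 185 CPM in Ahr-null males and 259, 75.3 and 70.3 CPM in Ahr-null females, against 71.6, 66.3 and 64.6 CPM in control males and 41.3, 41.8 and 47.0 CPM in control females. Again the same pair of libraries was highest, and the averaged log2 fold change was 1.17 ± 0.35 (edgeR adjusted p = 0.148). Elovl5, an elongase of the shorter polyunsaturated chains, had 101, 76.7 and 285 CPM in Ahr-null males and 304, 78.6 and 82.1 CPM in Ahr-null females, against 75.3, 131 and 72.7 CPM in control males and 64.7, 55.5 and 58.1 CPM in control females (averaged log2 fold change 1.06 ± 0.41, edgeR adjusted p = 0.235). For Fads1, Elovl2 and Elovl5 the female groups were separate and the male groups overlapped. The 2 high libraries are those with the highest hepatocyte marker sums. The fit without them was an alternative chosen after seeing the data. In it the averaged log2 fold change was 0.41 for Fads1, 0.44 for Elovl2 and 0.19 for Elovl5, and it was 1.03 for Fads2, which then passed (edgeR adjusted p = 0.022). In females the same fit gave 0.77 for Elovl2, which passed (edgeR adjusted p = 0.047), while without Ahr-null female 1 alone Elovl2 did not pass at 0.76 (edgeR adjusted p = 0.241).

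**Figure D3:**
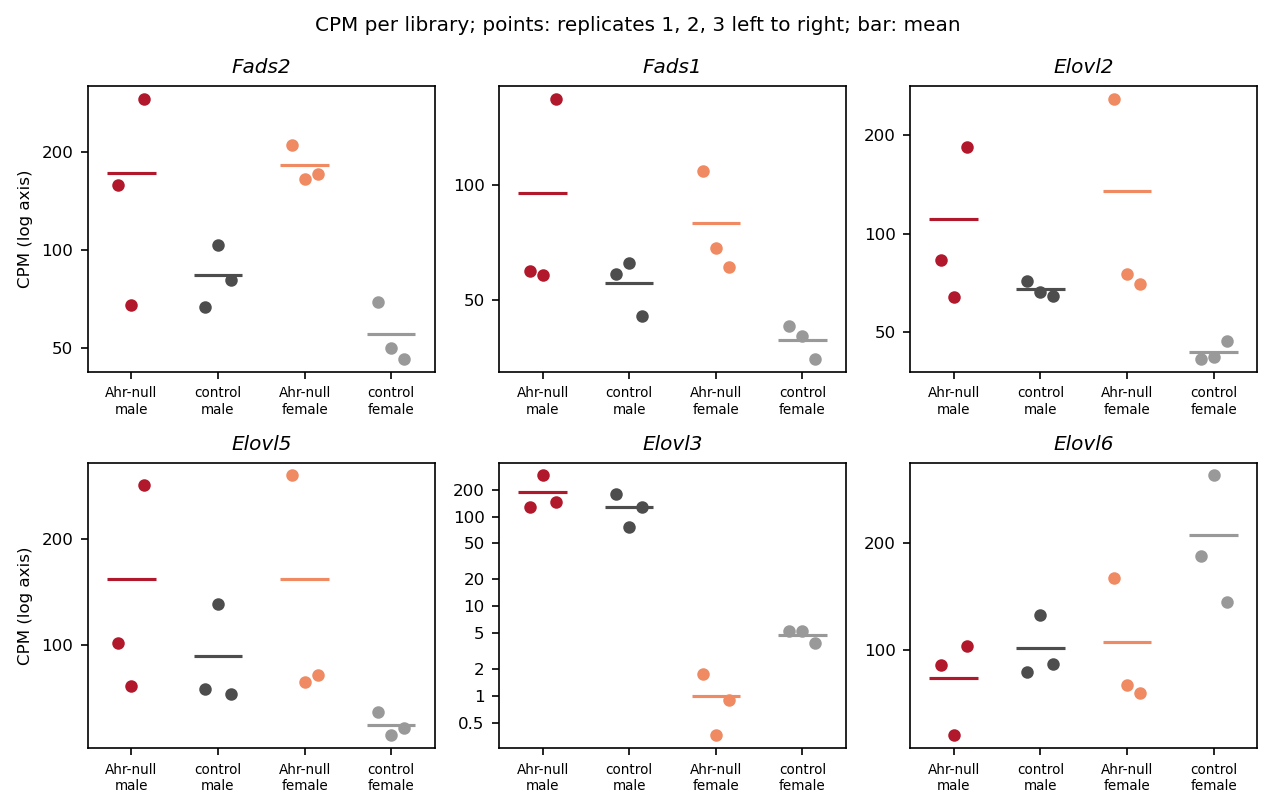
CPM on a log axis in each of the 3 libraries of the 4 groups, with group means as short lines, for Fads2, Fads1, Elovl2, Elovl5, Elovl3 and Elovl6. Single points far above their group mark Ahr-null male 3 and Ahr-null female 1 for Fads1, Elovl2 and Elovl5, and Elovl3 separates the sexes by far more than the genotypes.

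The elongases of saturated chains, Elovl6 and Elovl1, gave values of opposite sign, and neither passed. Elovl6, which turns palmitate into stearate, had 90.3, 57.1 and 102 CPM in Ahr-null males and 160, 79.2 and 75.4 CPM in Ahr-null females, against 86.5, 125 and 91.1 CPM in control males and 185, 312 and 136 CPM in control females. The groups overlapped in both sexes, and in females the overlap came from Ahr-null female 1. Averaged over the sexes Elovl6 gave -0.64 ± 0.28 (edgeR adjusted p = 0.293), and -0.94 (edgeR adjusted p = 0.0398) without the pair highest in hepatocyte markers. Elovl1, which makes very long saturated chains, had 22.6, 24.8 and 29.3 CPM in Ahr-null males and 19.5, 25.1 and 25.0 CPM in Ahr-null females, against 16.8, 21.6 and 20.1 CPM in control males and 18.3, 16.7 and 19.9 CPM in control females. The male groups were separate by a small margin, and the averaged log2 fold change was 0.37 ± 0.15 (edgeR adjusted p = 0.275).

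Elovl3 differed between the sexes more than any other gene of the set. This elongase of very long saturated and monounsaturated chains is known to be higher in male than in female mouse liver. It had 127, 287 and 144 CPM in Ahr-null males against 1.75, 0.361 and 0.884 CPM in Ahr-null females, from 3211, 3700 and 3646 counts against 19, 6 and 16 counts. In controls it had 177, 76.5 and 127 CPM in males against 5.32, 5.24 and 3.83 CPM in females. Males were far above females in both genotypes. The male minus female log2 difference was 7.59 ± 0.62 in Ahr-null livers (edgeR adjusted p = 0.000133) and 4.73 ± 0.53 in control livers (edgeR adjusted p = 0.00101). Elovl3 was the only 1 of the 36 genes called in either sex comparison, in which 0.279% of all tested genes were called in Ahr-null livers (0.227% higher in males) and 0.352% in control livers (0.198% higher in males).

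By genotype, Elovl3 was lower in all 3 Ahr-null females than in all 3 control females and overlapped in males. Its log2 fold change was -2.32 ± 0.54 in females (edgeR adjusted p = 0.112) and 0.55 ± 0.45 in males (edgeR adjusted p = 1). The difference between these effects, male minus female, was 2.87 ± 0.70, with the smallest p of the set for the interaction (0.00132, edgeR adjusted p = 0.836). Without the pair of neural libraries the female effect was -2.90 (edgeR adjusted p = 0.0224) and the interaction 3.77 ± 0.64 (edgeR adjusted p = 0.0926). Elovl3 overlaps Pitx3 in the annotation, and since the strand setting of the counting is not given in the sources used here, reads of the 2 genes cannot be told apart.

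The values of Scd1 and Scd2 turned on single libraries. Scd1, the main stearoyl-CoA desaturase of liver, had the highest level per kilobase of the 38 genes. It had 1163, 1201 and 1271 CPM in Ahr-null males and 4532, 833 and 485 CPM in Ahr-null females, against 1831, 2436 and 1431 CPM in control males and 593, 1097 and 732 CPM in control females. In males all Ahr-null livers lay below all control livers, while among Ahr-null females library 1 was far above every other liver and the remaining pair lay within or below the controls. The log2 fold change was -0.65 ± 0.64 in males (edgeR adjusted p = 1) and 1.27 ± 0.65 in females (edgeR adjusted p = 0.392), and the averaged value of 0.31 ± 0.45 (edgeR adjusted p = 0.806) turned to -0.47 without the pair of neural libraries. Scd2, a related desaturase known to be abundant in brain, had 3.08, 2.33 and 7.66 CPM in Ahr-null males and 52.7, 4.93 and 3.26 CPM in Ahr-null females, against 21.1, 2.94 and 2.68 CPM in control males and 3.52, 6.66 and 5.41 CPM in control females. Its 2 highest libraries were Ahr-null female 1 and control male 1, which were also the 2 highest in neuron and glia markers. Scd2 gave 0.48 ± 0.70 averaged over the sexes (edgeR adjusted p = 0.807), and 0.18 without that pair. Scd1 and Scd2 are close relatives, and how the counting treated reads shared between them is not given, so their values are uncertain.

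**Figure D4:**
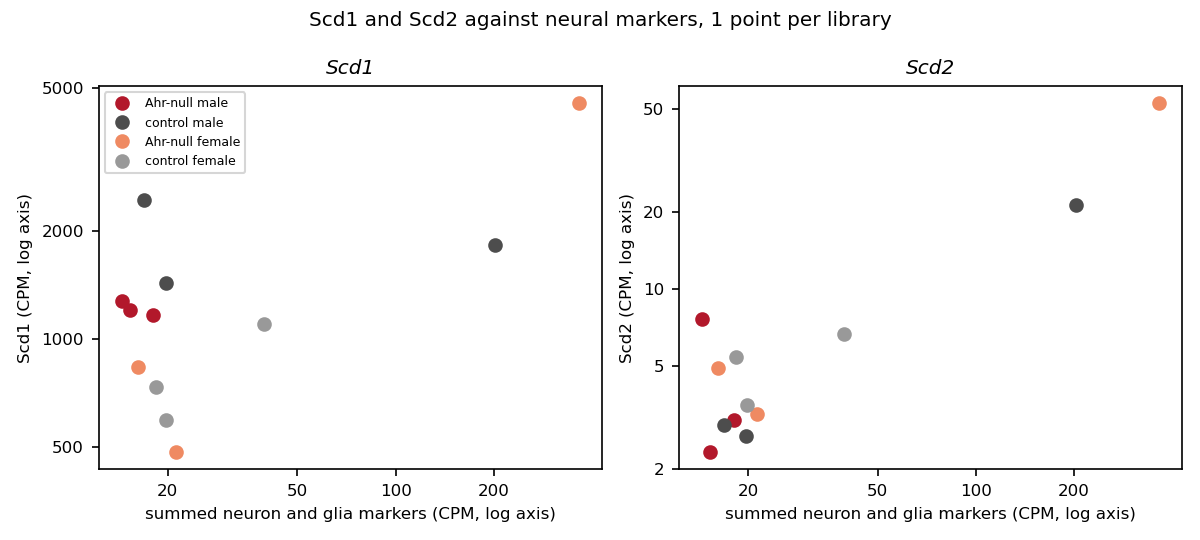
Scd1 and Scd2 (CPM, log axis) against the summed CPM of neuron and glia markers (log axis), 1 point for each of the 12 libraries, coloured by group. For Scd2 the points at 365 and 202 CPM of markers are also the highest, at 52.7 CPM (Ahr-null female 1) and 21.1 CPM (control male 1), and for Scd1 only Ahr-null female 1 stands apart, at 4532 CPM.

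Of the triglyceride synthesis enzymes 8 of 9 were tested, and Lpin1 alone passed by edgeR. Lpin1 encodes lipin-1, a phosphatidate phosphatase that also acts as a transcriptional coactivator. It lies at chr12:16535669-16610966, 18.9 Mb from Ahr on the same chromosome. Lpin1 had 55.0, 78.2 and 41.6 CPM in Ahr-null males and 53.3, 23.6 and 28.1 CPM in Ahr-null females, against 106, 98.9 and 134 CPM in control males and 81.3, 77.0 and 121 CPM in control females. Within each sex every Ahr-null liver lay below every control liver. Averaged over the sexes, Lpin1 fell by 1.19 ± 0.25 on the log2 scale (edgeR adjusted p = 0.0461), with values of -0.96 ± 0.36 in males (edgeR adjusted p = 0.705) and -1.42 ± 0.36 in females (edgeR adjusted p = 0.139). Leaving out 1 library kept the value between -1.40 and -1.07. The call held only without Ahr-null male 2 (edgeR adjusted p = 0.0289) or Ahr-null female 1 (0.00249), and was lost without any other single library. Those 10 fits gave values between -1.25 and -1.07, with adjusted p of 0.153 and 0.158 without Ahr-null male 1 and 3, 0.11 and 0.0941 without Ahr-null female 2 and 3, 0.0907, 0.120 and 0.139 without control male 1, 2 and 3, and 0.119, 0.102 and 0.153 without control female 1, 2 and 3. Scaling by library size alone also lost the call (-0.75, edgeR adjusted p = 0.0926), where the median of all tested genes was 0.53. The related Lpin2 and Lpin3 did not pass, at -0.48 ± 0.35 and 0.42 ± 0.38. Without the pair highest in hepatocyte markers Lpin3 passed in females (1.20, edgeR adjusted p = 0.0486). Averaged over the sexes it did not pass in that fit (0.75, edgeR adjusted p = 0.0574).

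Dgat2, the acyltransferase that stores newly made fatty acids, had 87.1, 113 and 89.3 CPM in Ahr-null males and 132, 72.6 and 88.1 CPM in Ahr-null females, against 142, 165 and 139 CPM in control males and 138, 124 and 150 CPM in control females. The male groups were separate, and in females Ahr-null female 1 reached the controls. For Dgat2 the averaged log2 fold change was -0.56 ± 0.20 (edgeR adjusted p = 0.200), and it passed without Ahr-null female 1 (-0.69, edgeR adjusted p = 0.0255), without the neural pair (-0.70, 0.0414), without the pair highest in hepatocyte markers (-0.67, 0.0277) and by DESeq2 (-0.55, adjusted p = 0.0476). Dgat2 did not pass in the other 11 fits with 1 library left out (edgeR adjusted p up to 0.404), and was at -0.48 without Ahr-null female 2. With scaling by library size alone Dgat2 was at -0.09, where the median of all tested genes was 0.53. Gpam, which starts glycerolipid synthesis, had 56.5, 46.8 and 114 CPM in Ahr-null males and 86.6, 64.6 and 52.9 CPM in Ahr-null females, against 42.5, 65.6 and 59.5 CPM in control males and 36.3, 56.3 and 28.3 CPM in control females. The groups overlapped in both sexes, with 0.57 ± 0.27 as the averaged log2 fold change (edgeR adjusted p = 0.337), and its highest livers were again Ahr-null male 3 and Ahr-null female 1. With 1 library left out the value ran from 0.32 without Ahr-null male 3 to 0.72 without control female 2. With scaling by library size alone, which called 986 genes higher and 67 lower, Gpam passed (1.14, edgeR adjusted p = 0.0421). Agpat2, Agpat3 and Dgat1 had small averaged log2 fold changes of -0.01, 0.31 and 0.28. The Ahr-null males of Dgat1 lay at 20.9 to 21.0 CPM, just above control males at 16.2 to 19.5 CPM.

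Among the genes of lipolysis and droplets 7 of 8 were tested and none passed by edgeR, with Cidec and G0s2 at an unadjusted p under 0.05, while DESeq2 called Cidec. Cidec, a droplet protein known to rise in fatty liver, had the largest positive fold change of the set at low counts. It had 12.1, 0.620 and 7.50 CPM in Ahr-null males and 3.21, 7.10 and 3.48 CPM in Ahr-null females, against 0.168, 2.71 and 2.23 CPM in control males and 0.966, 1.42 and 0.916 CPM in control females. The female groups were separate, while Ahr-null male 2, with 8 counts, lay within the control males, the lowest of which had 2 counts. For Cidec the averaged log2 fold change was 2.03 ± 0.62 (edgeR adjusted p = 0.150), and it passed without Ahr-null male 2 (2.29, edgeR adjusted p = 0.0376), with scaling by library size alone (2.60, 0.0398) and by DESeq2 (2.03, adjusted p = 0.040). Cidec did not pass in the other 11 fits with 1 library left out (edgeR adjusted p up to 0.371), and was lowest, at 1.69, without Ahr-null male 1. Over all genes, library size alone called 986 higher and 67 lower. G0s2, an inhibitor of ATGL, had 116, 79.4 and 67.2 CPM in Ahr-null males and 42.2, 63.1 and 31.5 CPM in Ahr-null females, against 50.8, 142 and 145 CPM in control males and 114, 221 and 37.9 CPM in control females. Each sex held 1 low control, so the groups overlapped, with -0.90 ± 0.40 as the averaged log2 fold change (edgeR adjusted p = 0.297). With 1 library left out that value ran from -1.115 without control female 3 to -0.55 without control female 2. Pnpla2, which encodes ATGL itself, had 27.7, 28.3 and 38.3 CPM in Ahr-null males and 34.6, 32.9 and 48.7 CPM in Ahr-null females, against 34.4, 39.8 and 43.0 CPM in control males and 27.6, 24.7 and 51.2 CPM in control females. Its values overlapped throughout (-0.07 ± 0.21, edgeR adjusted p = 0.918). Plin4 and Plin5, droplet coat proteins, were at -0.34 and -0.05, Cideb at 0.30, and Pnpla3, with at most 22 counts in a library, at 0.76 ± 0.55. With scaling by library size alone Pnpla2, Plin4 and Plin5 turned positive, as did Agpat2 and Lpin2, but each stayed below the all-gene median of 0.53 in that setting.

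**Figure D5:**
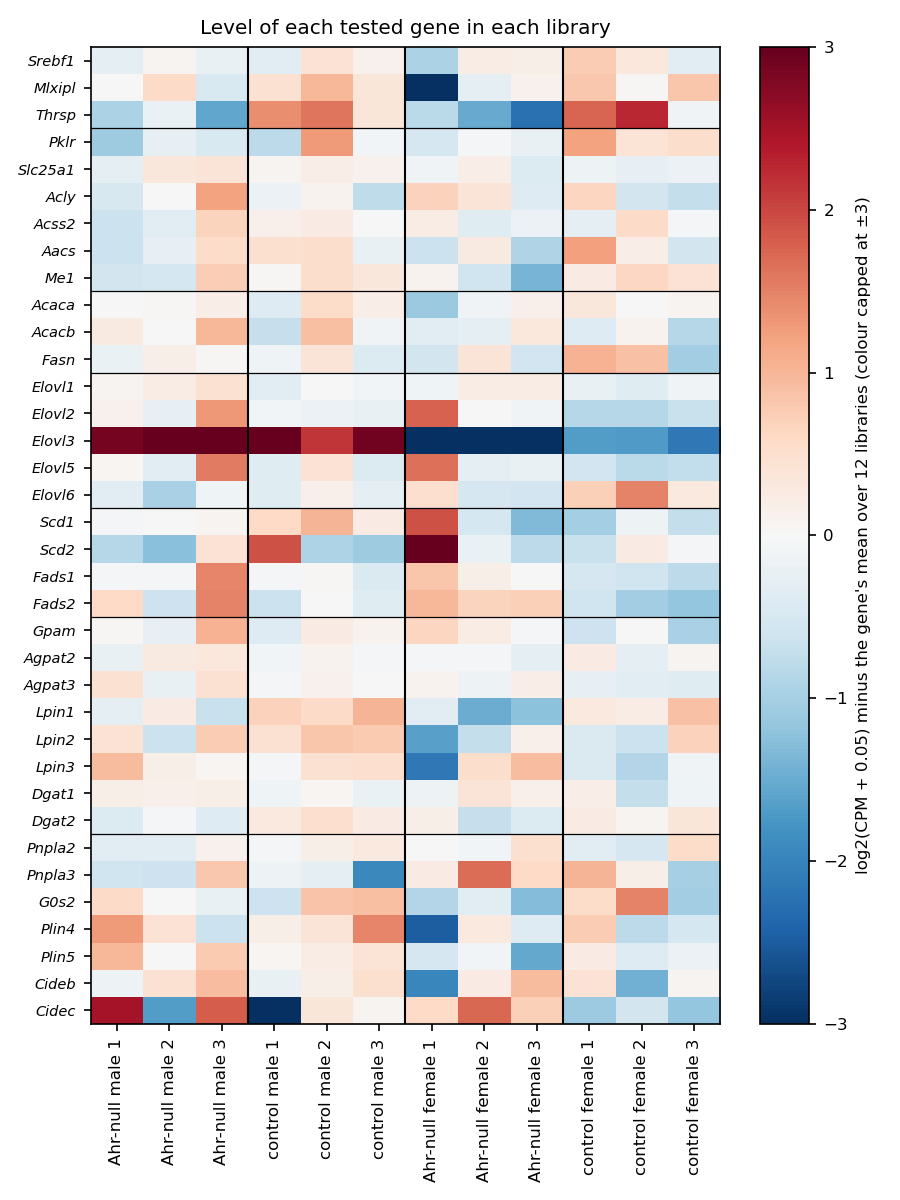
Level of each tested gene (rows, by role) in each of the 12 libraries (columns), as log2(CPM + 0.05) minus the gene's mean, red for higher and blue for lower, with colours capped at 3. Thrsp and Lpin1 are blue in most Ahr-null columns, Elovl3 is red in male and blue in female columns, and Elovl2, Elovl5, Fads1 and Fads2 are reddest in Ahr-null male 3 and Ahr-null female 1.

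Within each sex no gene of the set passed the genotype test. In males 0 of the 36 genes passed by edgeR (0.0367% of all tested genes), 5 had an unadjusted p under 0.05 (5.81% of all), and DESeq2 and limma also called 0. In females 0 passed by edgeR (0.161% of all), 12 had an unadjusted p under 0.05 (14.4% of all), limma called 0, and DESeq2 called 5, namely Thrsp, Lpin1, Elovl3, Fads2 and Elovl2. Over all genes DESeq2 called 445 of 14692 in females, many more than edgeR with 22 of 13641. For the interaction 0 passed by edgeR (0.00733% of all), 1 had an unadjusted p under 0.05 (4.6% of all), limma called 0, and DESeq2 called Elovl3 (adjusted p = 0.0364), among 23 calls over 17798 genes. Without the neural pair of libraries, the females gave 3 calls, all lower, in Thrsp (-3.42, edgeR adjusted p = 0.0354), Lpin1 (-1.83, 0.0205) and Elovl3 (-2.90, 0.0224). That fit called 235 of 13768 genes in females.

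The groups were also compared by whether their values overlapped. In males 2 of the 36 genes, Elovl1 and Dgat1, were higher in every Ahr-null liver (6.55% of all tested genes), and 4, Thrsp, Scd1, Lpin1 and Dgat2, were lower (7.34% of all). In females 6, Elovl2, Elovl5, Fads1, Fads2, Agpat3 and Cidec, were higher (9.22% of all), and 5, Thrsp, Pklr, Me1, Elovl3 and Lpin1, were lower (9.86% of all). Thrsp and Lpin1 were the 2 genes lower in both sexes (1.62% of all), and 0 were higher in both (1.28% of all). Between the sexes, 3 genes were higher in every Ahr-null male than in every Ahr-null female, namely Elovl3, G0s2 and Plin5 (4.83% of all), and 0 were lower (6.38% of all). In controls 8 were higher in males (9.38% of all), namely Slc25a1, Elovl2, Elovl3, Elovl5, Scd1, Fads1, Agpat3 and Lpin3. In the same comparison 1, Elovl6, was lower (9.19% of all).

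Related genes outside the set were counted in lists chosen with earlier results of these data known. Of 13 further regulators of lipogenesis, 1 passed in the averaged comparison and was lower, and 12 did not pass. It was Ppargc1b, a coactivator known to work with SREBP. Ppargc1b had 16.5, 20.1 and 10.5 CPM in Ahr-null males and 9.83, 27.6 and 31.5 CPM in Ahr-null females, against 54.1, 36.3 and 30.5 CPM in control males and 52.0, 79.9 and 58.9 CPM in control females. Within each sex the groups were separate, and the averaged log2 fold change was -1.41 ± 0.29 (edgeR adjusted p = 0.0382). The list's median was -0.01, next to 0.04 for all tested genes. None of 9 tested genes of other elongation and desaturation steps passed (median 0.12), with Fads3, a neighbour of Fads1 and Fads2, nearest at 1.70 ± 0.44 (edgeR adjusted p = 0.0923). None of 11 genes of other glycerolipid steps (median 0.43), of 11 other droplet and lipolysis genes (median 0.08) or of 8 genes of glucose and NADPH supply (median -0.54) passed.

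Clock genes, listed because several genes of fat synthesis are known to follow the time of day, differed as well. In the averaged comparison 3 of 18 were called, all lower, namely Bhlhe41 (-2.64 ± 0.34, edgeR adjusted p = 0.00741), Dbp (-2.54 ± 0.45, 0.0206) and Per3 (-1.57 ± 0.33, 0.0398). In males 2 were called, Dbp (-5.29 ± 0.73, 0.0235) and Bhlhe41 (-4.79 ± 0.53, 0.00814), and Per3 was at -3.15 ± 0.49 (edgeR adjusted p = 0.0582). In females edgeR called 0 of the 18, with Dbp at 0.22 ± 0.59, Per3 at 0.01 ± 0.44 and Bhlhe41 at -0.49 ± 0.45, and the groups of all 3 overlapped. Dbp had 1.97, 1.86 and 0.987 CPM in Ahr-null males and 10.8, 53.8 and 128 CPM in Ahr-null females, against 44.5, 70.1 and 73.2 CPM in control males and 50.9, 49.0 and 65.5 CPM in control females. The averaged values of Dbp and Per3 thus came from the males, and that of Bhlhe41 came mostly from them. However, the interaction did not pass (edgeR adjusted p = 0.208 for Dbp, 0.76 for Per3 and 0.199 for Bhlhe41). Between the sexes of Ahr-null livers 3 clock genes were called, Dbp and Per3 lower in males and Arntl higher. The list's median log2 fold change was -0.98 in males and -0.19 in females, against 0.00 and 0.06 for all tested genes. The part of these clock gene differences, and of the mitochondrial share, in the values of Thrsp and Lpin1 was not tested. Without the libraries highest in hepatocyte markers Thrsp was at -2.58 and Lpin1 at -1.30, and without the neural pair they were at -2.66 and -1.42.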

How the data were processed

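RNA-seq counts of 12 livers were analysed. The authors deposited whole-number counts per gene and, in a second table, variance-stabilised values on the log2 scale. The submitters' processing notes name STAR 2.7.8, Trim Galore 0.6.5, DESeq2 1.28.1, FastQC 0.11.8 and the build GRCm38. Which program counted reads, with what strand setting and annotation, is not given in the sources used here. Overlapping coding genes make Srebf1, Pklr, Acss2, Acaca, Elovl1, Elovl3, Agpat2, Mogat1, G0s2, Plin4 and Cideb uncertain. Positions come from GENCODE, matched for 27275 of 27304 IDs.

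Tests on the counts used edgeR 4.0.16 and R 4.3.3 (filterByExpr by the 4 groups, TMM, robust quasi-likelihood fit, 1 mean per group, 8 residual degrees of freedom). There were 6 two-sided contrasts: genotype averaged over sexes, in males and in females, the interaction (male minus female effect), and sex within each genotype. P-values were adjusted by Benjamini-Hochberg over 13641 genes, with calls under 0.05. The SE is the absolute log2 fold change divided by the square root of F. The fits were tested on simulated data. Libraries held 9794253 to 18924880 counts. All replicate pairs differed by more than counting noise (chi-square per degree of freedom 22.2 to 248), so the spread between livers limits the precision.

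Values per library are given for genes called in any contrast, those with an unadjusted p under 0.05 for genotype averaged over sexes, and Srebf1, Mlxipl, Acaca, Fasn, Scd1, Elovl6, Gpam, Dgat2 and Pnpla2; Scd2, Ppargc1b, Dbp and Marco were added after their values were seen. Members, lists and this rule were chosen with earlier results of these data known. Alternatives were RLE factors, library size alone, no low-count filter, DESeq2 1.42.0, limma 3.58.1 on the deposited values, and libraries left out.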

Additional observations from a re-analysis of the deposited data

How the results depend on the processing

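No paired analysis was possible because the labels carry no replicate numbers that are shared between groups. For genotype averaged over sexes, calls among the 36 genes and among all genes were 7 and 1053 with library size alone, 6 and 582 with DESeq2, 4 and 432 without the neural pair, and 6 and 694 without the pair highest in hepatocyte markers (an alternative chosen after seeing the data), against 2 and 144. Genes with an adjusted p numbered 15469 with DESeq2, 13768 without the neural pair and 13699 without the other pair, against 13641. Library size alone split the calls into 986 higher and 67 lower, against 72 and 72, and shifted the median of all genes to 0.53; its values are read relative to that shift. In males all-gene calls were 12, 86, 9 (limma), 27 and 22 in the same order, against 5. In females they were 117, 445, 45 (limma), 235 and 424, against 22, with 1, 5, 3 and 8 of the 36 without limma, against 0. For the interaction they were 3, 23, 4 (limma), 4 and 4, against 1, and DESeq2 called 1 of the 36. For sex in Ahr-null livers they were 210, 110 and 84 with DESeq2 and without either pair, against 38, with 2 of the 36 in the last (Elovl3 and Lpin1). For sex in controls they were 139, 79 and 140, against 48. With 1 library left out, calls among the 36 genes ranged from 0 to 4 averaged and 0 to 3 in females; calls among all genes ranged from 6 (without Ahr-null male 1) to 663 (without Ahr-null female 1) averaged, 0 to 57 in males, 3 to 153 in females, 0 to 2 for the interaction, 11 to 90 for sex in Ahr-null livers and 19 to 101 for sex in controls. The cause of these shifts was not tested.

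The sign of the log2 fold change held in 45 of 59 gene results under every alternative, including Thrsp, Lpin1, Fads2 and Elovl3. These 59 were the averaged values of the 36 tested genes and values of other contrasts with a main unadjusted p under 0.05. The fits with 1 library left out share most of their libraries. With library size alone the sign turned for Srebf1 (0.14), Acss2 (0.40), Acaca (0.22), Fasn (0.19), Agpat2 (0.47), Lpin2 (0.0071), Pnpla2 (0.39), Plin4 (0.10) and Plin5 (0.48). Each of these values still lay below the all-gene median of 0.53 in that setting. Agpat2 also turned with RLE factors (0.0063), DESeq2 (0.0039) and limma (0.0017). Without the neural pair Scd1 turned to -0.47 and the sex difference of Scd2 in Ahr-null livers to 0.13; without the pair highest in hepatocyte markers Scd1 was -0.48, Scd2 -1.01 and Plin4 0.071. With 1 library left out the averaged value changed sign for Slc25a1 (-0.015 to 0.18), Scd1 (-0.46 to 0.53), Scd2 (-0.65 to 1.30), Agpat2 (-0.078 to 0.081), Pnpla2 (-0.18 to 0.13), Plin5 (-0.23 to 0.10) and Cideb (-0.030 to 0.53), and the sex difference of Scd2 in Ahr-null livers ran from -2.87 to 0.13. None of these was called. Low counts limit Cidec, Cideb, Pnpla3, Mogat1 and Cidea.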
